A study of Mus musculus with 4 samples.

Results

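Solute carriers are membrane proteins that move ions, amino acids, sugars, nucleosides, metals and vitamins across the cell surface and the membranes of organelles. The genes described here are those whose platform symbol is Slc followed by a family number and a letter. The arrays carried 263 probes for 246 such genes in 49 families, out of 12817 genes with a symbol. Of these, 184 genes in 47 families, read by 191 probes, had a value on all 4 arrays and were analysed further, out of 9757 named genes that did. The other 62 had a value on some arrays (42 genes) or on none (20 genes). Among the 184, Slc9a3r1 and Slc9a3r2 (scaffold proteins that bind a sodium-proton exchanger) and Slc4a1ap (kanadaptin) match the naming rule but carry no solute. They are counted with the rest. Members with a value numbered 192 and 212 on XY replicates 1 and 2, and 216 and 219 on Wnt4 null replicates 1 and 2.

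Most carriers use no ATP of their own. They let a solute run down its gradient, exchange it for another, or couple it to sodium or proton gradients built up by ATP-driven pumps, and the family number groups proteins of related sequence and, in many cases, related substrates. Family 6 takes up neurotransmitters, taurine and creatine. Family 7 holds light chains of amino acid exchangers and also cationic amino acid carriers. Family 25 sits in the inner mitochondrial membrane. Families 30 and 39 move zinc out of and into the cytosol, and family 35 brings nucleotide sugars into the Golgi and endoplasmic reticulum.

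Gonads of mouse embryos were taken at 12 days post coitum, separated from the mesonephros, and hybridised on 2-colour spotted oligonucleotide arrays. XY Wnt4+/+ gonads (fetal testes) and XX Wnt4-/- gonads, called Wnt4 null here, were each set against XX Wnt4+/+ gonads (fetal ovaries), so both comparisons have XX wild type as their reference. The labels do not state that it was 1 RNA pool on all arrays. Each comparison had 2 arrays, with the dyes exchanged between them. RNA came from pools of gonads, with over 100 embryos collected for each sex and genotype. Nothing in the labels tells if both arrays of a comparison carried the same pool. The SD and the p-values without a dye term thus measure the spread between arrays, which may be technical. The p-values with a dye term measure what is left of that spread after a dye effect, taken as equal in both comparisons, is removed. Strain and the kind of Wnt4 allele are not given in the labels. Every value is a log2 ratio to XX wild type, with each array centred on its median. No spot brightness was analysed here, so levels, background and detection are unknown. In whole gonads, fewer cells of a type and less RNA per cell cannot be told apart.

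The direction of the ratios is likely but not settled, because no label names the numerator. XY replicate 1 was turned in sign and the other 3 columns kept as deposited, with XX wild type as the denominator. The basis is that the design names XX wild type as the reference, and that the deposited values of the Y-linked gene Eif2s3y were -2.22 and 2.25 on XY replicates 1 and 2, while those of Xist, made from the inactive X, were 1.67 and -1.22. A second Eif2s3y probe had -0.64 and -0.46. These probes were not quiet on Wnt4 null replicates 1 and 2, where both channels are XX. There the first Eif2s3y probe had deposited values of 1.53 and 0.18, the second 0.71 and -1.37, and Xist -0.48 and 0.45. As deposited, XY replicate 1 and Wnt4 null replicate 1, which share a dye orientation, correlated at r = -0.62 across 12264 spots. If both comparisons were turned, every sign below would turn and every size would stay. Under another reading, in which the dye orientation sets the sign on all 4 arrays, replicate 1 of the Wnt4 null pair turns as well, and that value is given where it matters.

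Known markers of the fetal gonad were read in the same way. The median log2 ratio over 11 measured early testis genes was 0.93 in XY gonads and 0.27 in Wnt4 null gonads. Over 9 genes of ovary supporting cells it was -1.8 and -1.22. Of these 9, 7 lay below 0 on both Wnt4 null arrays, 0 above, and 2 had arrays of different sign. Irx3 had -2.67 and -2.7 on these arrays, and Fst -3.02 and -2.21. If Wnt4 null replicate 1 is turned as well, the arrays of those 7 genes oppose each other. Which reading holds was not tested. Over 11 germ cell genes the median was -0.52 and -0.04, over 12 genes of stroma and matrix 0.96 and 0.61, and over 12 endothelial genes 0.24 and 0.11. In the Wnt4 null gonads, 6 of the 11 germ cell genes and 6 of the 12 endothelial genes had arrays of different sign. The part of these cell types in the carrier values was not tested.

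Solute carriers as a group had median log2 ratios near 0 in both comparisons, with each array centred on its own median. The median size of a carrier's XY mean was 0.123, beside 0.121 over all 11579 features tested, and that of its Wnt4 null mean was 0.0852, beside 0.0994. The median log2 ratio of the 184 genes was 0.00568 in XY against XX gonads, beside 0.00304 over all features, and the means ran from -0.93 to 1.02. In Wnt4 null gonads the median was -0.0148, beside 0.00244 over all features, and the means ran from -0.90 to 0.52. On Wnt4 null replicates 1 and 2 the carrier medians were -0.0310 and -0.0303, beside 0.00222 and -0.00803 over all features. The median SD between the arrays of a pair was 0.217 in the XY comparison and 0.261 in the Wnt4 null comparison, which is larger than the median size of the means. Over the 184 genes, the arrays of a pair correlated at r = -0.219 for XY and r = -0.617 for Wnt4 null, beside 0.0622 and -0.460 over all features. Genes here are not independent replicates, and the arrays of a pair differ in dye orientation.

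**Figure D1:**
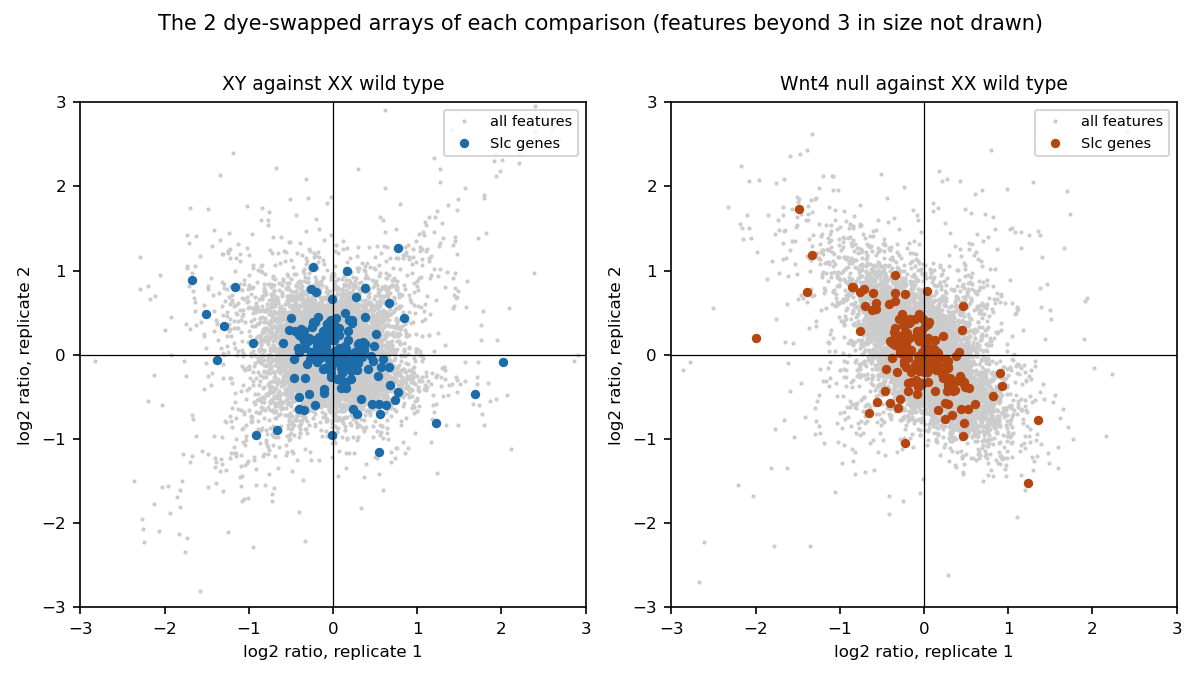
Log2 ratio to XX wild type on replicate 1 (horizontal) and replicate 2 (vertical) of each comparison, for all features (grey) and the 184 solute carrier genes (coloured), with XY on the left and Wnt4 null on the right. Carriers lie near 0 in both panels, and in the Wnt4 null panel they run from upper left to lower right (r = -0.617), so that a gene above 0 on one array tended to lie below 0 on the other.

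In XY gonads, 4 carriers differed from XX gonads by at least 1.5-fold (0.585 on the log2 scale) on each array and with 1 sign. Slc6a8, the creatine transporter, and Slc40a1, ferroportin, the iron exporter, were the 2 genes with higher values. This rule of size took 1.4% of all features as higher. Slc41a3, a magnesium transporter, and Slc46a3, a carrier of the lysosomal membrane, were the 2 genes with lower values, and the rule took 1.38% of all features as lower. In each direction the share of carriers was 1.09%, which is near the background.

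Slc6a8 had log2 ratios of 0.77 and 1.27 on the XY arrays, a mean of 1.02 ± 0.36 (SD, n = 2) or 2.03-fold. On the Wnt4 null arrays it had -0.00 and 0.14, a mean of 0.07 ± 0.10 (SD, n = 2). Slc6a8 was thus high in XY gonads on both arrays and near the XX wild type in Wnt4 null gonads, and the arrays of the 2 comparisons did not overlap. In a limma fit over all features without a term for the dye, the adjusted p of the XY difference was 0.32. With a term that gives each probe its own dye effect, it was 0.0321. The difference between the comparisons was 0.95, with a limma adjusted p of 1.0, or 0.326 with the dye term. Slc6a8 lies on the X chromosome. The other 5 measured X-linked carriers (Slc7a3, Slc25a14, Slc10a3, Slc25a53 and Slc35a2) all had XY arrays of different sign, and the median over the 6 was -0.01.

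Slc40a1 had 0.67 and 0.61 on the XY arrays, a mean of 0.64 ± 0.04 (SD, n = 2) or 1.56-fold. It had 0.46 and 0.58 on the Wnt4 null arrays, a mean of 0.52 ± 0.08 (SD, n = 2). All 4 arrays were therefore above the XX wild type. The limma adjusted p was 0.421 (0.0563 with the dye term) for XY and 1.0 (0.186) for Wnt4 null. With the dye term, limma called the XY difference of Slc40a1 when the deposited centring was kept (adjusted p = 0.0441). It also did so when printed blocks were centred (0.025) and when arrays were scaled to 1 spread (0.00854). Of all 11579 features, 433, 650 and 1084 were called in these settings. Ferroportin is best known from macrophages, gut and liver, where it releases iron to the blood. Of 8 measured macrophage genes, 0 lay above 0 on both XY arrays and 4 below, with a median of -0.03. On the Wnt4 null arrays 5 lay above and 0 below, with a median of 0.46, led by C1qb at 0.65. Of 7 measured red blood cell genes the medians were -0.09 and 0.09. Their part in the Slc40a1 values was not tested.

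Slc41a3 had the lowest mean of all carriers in XY gonads. It had -0.92 and -0.95 on the XY arrays, a mean of -0.93 ± 0.02 (SD, n = 2), that is 1.91-fold lower. On the Wnt4 null arrays it had -0.65 and -0.69, a mean of -0.67 ± 0.03 (SD, n = 2). All 4 arrays lay below the XX wild type. The limma adjusted p was 0.268 without and 0.0263 with the dye term for XY, and 1.0 and 0.111 for Wnt4 null. Slc46a3 followed the same order, with -0.66 and -0.89 in XY gonads and -0.46 and -0.43 in Wnt4 null gonads. Its XY mean was -0.78 ± 0.16 (SD, n = 2), or 1.72-fold lower, with a limma adjusted p of 0.336 without and 0.0432 with the dye term. Its Wnt4 null mean was -0.44 ± 0.02 (SD, n = 2), with adjusted p of 1.0 and 0.241.

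Slc30a5, which loads zinc into the secretory pathway, was the third carrier low on all 4 arrays by at least 0.41. That limit is its own smallest value, so it is no planned rule, and the share of all features passing it was not counted. It had -0.41 and -0.64 in XY gonads, and -0.56 and -0.56 in Wnt4 null gonads. It was read by 2 probes, and these had XY means of -0.58 and -0.47 and Wnt4 null means of -0.52 and -0.60. Both probes were thus below 0 on every array. The gene's limma adjusted p was 0.633 without and 0.0868 with the dye term for XY, and 1.0 and 0.166 for Wnt4 null.

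The promoters of Slc41a3, Slc46a3 and Slc30a5 are shown because these 3 genes had log2 ratios of -0.41 or lower on all 4 arrays. That limit was taken from the value of Slc30a5 on XY replicate 1. Each sequence is the gene's own strand from RefSeq (GRCm38.p6), 250 bases before to 50 after the transcription start, 5′ to 3′, with GGGCGG, the core of SP and KLF sites, in capitals.
Slc41a3 promoter, chr6:90618996-90619295, plus strand: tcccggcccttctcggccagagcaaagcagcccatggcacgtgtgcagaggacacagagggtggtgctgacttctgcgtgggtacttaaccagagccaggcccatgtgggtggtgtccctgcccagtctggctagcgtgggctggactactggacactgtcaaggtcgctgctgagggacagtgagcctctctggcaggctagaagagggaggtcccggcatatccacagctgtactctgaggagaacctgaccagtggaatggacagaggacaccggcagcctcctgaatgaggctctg
Slc46a3 promoter, chr5:147894766-147895065, minus strand: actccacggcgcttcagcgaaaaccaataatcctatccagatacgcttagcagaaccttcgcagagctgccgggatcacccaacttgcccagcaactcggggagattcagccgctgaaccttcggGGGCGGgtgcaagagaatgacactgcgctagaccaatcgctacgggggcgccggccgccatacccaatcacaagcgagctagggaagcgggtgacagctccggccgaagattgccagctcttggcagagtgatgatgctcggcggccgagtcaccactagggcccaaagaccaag
Slc30a5 promoter, chr13:100833378-100833677, minus strand: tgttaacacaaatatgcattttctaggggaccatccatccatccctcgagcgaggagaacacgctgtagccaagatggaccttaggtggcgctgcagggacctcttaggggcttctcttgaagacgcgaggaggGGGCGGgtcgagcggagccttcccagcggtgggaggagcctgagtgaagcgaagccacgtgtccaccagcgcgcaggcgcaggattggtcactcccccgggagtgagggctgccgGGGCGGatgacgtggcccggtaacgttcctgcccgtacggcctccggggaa
They held 61.0%, 60.0% and 63.3% G and C. CTTTGA, the core that TCF and LEF factors bind downstream of WNT signals through beta-catenin, and AACAAT, a core bound by SOX factors, were in none of the 3 windows on either strand. GGGCGG was in the Slc46a3 window at -125 and in the Slc30a5 window at -116 and -1, and not in the Slc41a3 window. Of 32851 mouse promoter windows of this length, 16% held CTTTGA, 10.7% AACAAT and 35.7% GGGCGG on either strand. Of 194 windows of 145 measured carrier genes, these shares were 13.4%, 4.12% and 61.9%. A match or its absence in a window says nothing on binding. In all, 196 of the 246 genes had a promoter in the table, and Slc6a8, Slc40a1 and Slc7a5 had none.

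Without the dye term, limma called 0 of the 184 carriers in XY gonads at an adjusted p under 0.05, and 0 of all 11579 features (0.0%). At an unadjusted p under 0.05 it took 8 carriers (Slc6a8, Slc40a1, Slc25a10, Slc30a5, Slc37a2, Slc41a3, Slc46a3 and Slc4a3), which is 4.35%, beside 5.74% of all features. With the dye term it called 4 carriers, with 2.79% of all features called and the carriers' share at 2.17%. At an unadjusted p under 0.05 it took 32 carriers, 17.4% beside 18.9%. Slc6a8 was the 1 carrier called higher, where 1.39% of all features were, and Slc41a3, Slc46a3 and Slc4a8 were called lower, where 1.4% of all features were. The dye-term count was 8 of the 184 carriers with each printed block centred, where 650 of all 11579 features were called. It was 18 with arrays scaled to 1 spread, where 1084 of all features were called. It was 0 with all columns as deposited, and 0 with signs set by the dye orientation. Slc4a8, a sodium-driven bicarbonate and chloride exchanger, had -1.38 on XY replicate 1 and -0.06 on XY replicate 2, a mean of -0.72 ± 0.93 (SD, n = 2). Its Wnt4 null arrays had -0.70 and 0.58. Its call, with a dye-term adjusted p of 0.0397 beside 1.0 without the term, therefore rests on the dye effect fitted over all 4 arrays. The part of its values shared by arrays of the same dye orientation was -0.65.

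**Figure D2:**
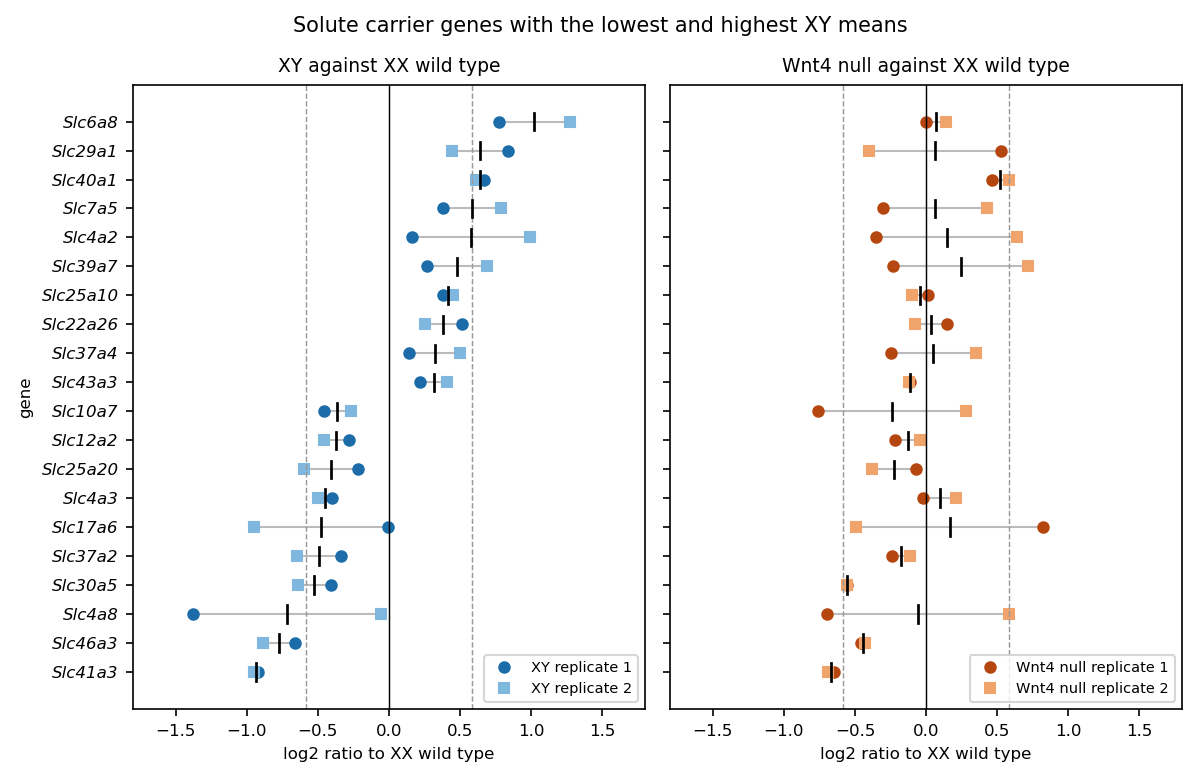
Log2 ratio to XX wild type on each array (circles replicate 1, squares replicate 2, black bars the mean of 2) for the carriers with the highest and lowest XY means among those with the same sign on both XY arrays, with XY on the left, Wnt4 null on the right and dashed lines at 1.5-fold. Slc6a8 and Slc40a1 lie right of the upper dashed line on both XY arrays and Slc41a3 and Slc46a3 left of the lower one, while several others, such as Slc4a8, have arrays far apart.

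Carriers of amino acids and their relatives lay above 0 on both XY arrays in 8 of 29 measured genes and below in 2, where all features had 21.9% above and 21.8% below. The other 19 had arrays of different sign, as did 56.3% of all features, and the median was 0.04. Slc7a5, the large neutral amino acid exchanger, had 0.38 and 0.79, a mean of 0.58 ± 0.29 (SD, n = 2). Its Wnt4 null arrays had -0.30 and 0.43. Slc3a2, the heavy chain that brings Slc7a5 to the surface, had 0.34 and -0.03 in XY gonads, so the partners did not share a direction on both arrays. Slc43a3, placed here by its family although it is known for purine uptake, had 0.22 and 0.41. Slc38a4 and Slc22a18, both known as imprinted genes, were below 0 on both XY arrays. Slc38a4, a neutral amino acid carrier, had probe means of -0.26 and -0.30, and Slc22a18, an organic cation carrier, had -0.46 and -0.05. The limma dye-term fit called Slc7a5 with printed blocks centred (adjusted p = 0.0255) and with arrays scaled (0.0132), and the others in no setting run. Of all 11579 features, 650 and 1084 were called in these settings. Slc3a2 was named for its role after its values were seen.

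In the families classed under bicarbonate, chloride and sulphate, 3 of 15 measured genes lay above 0 on both XY arrays and 5 below, with a median of -0.14. Slc4a2, the widely expressed chloride-bicarbonate exchanger, had 0.16 and 0.99, and Slc4a3, its relative known from heart and brain, had -0.40 and -0.50. Both probes of Slc4a3 were low, with means of -0.54 and -0.35. Slc12a2, the sodium-potassium-chloride cotransporter, had -0.28 and -0.46. Members of 1 family thus lay on different sides of the XX wild type. Of this class the limma dye-term fit called Slc4a8. It also called Slc4a2 with printed blocks centred (adjusted p = 0.0312), and Slc4a2 (0.0118), Slc4a3 (0.038) and Slc12a1 (0.0295) with arrays scaled. These settings called 650 and 1084 of all 11579 features. Slc12a1 had -1.29 and 0.34 on the XY arrays, so its sign differed between them.

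Of 20 measured metal carriers, 3 lay above 0 on both XY arrays and 4 below, with a median of -0.01. This class held Slc40a1, Slc41a3 and Slc30a5 described above, and Slc39a7, which releases zinc from the endoplasmic reticulum, at 0.27 and 0.69. The zinc families had medians near 0, at -0.02 for the 7 genes of family 30 and 0.04 for the 8 genes of family 39. Of 27 mitochondrial carriers, 2 lay above and 5 below, with a median of -0.05. Slc25a10, the dicarboxylate carrier, had 0.38 and 0.45, and Slc25a20, which imports acylcarnitines for fatty acid oxidation, had -0.22 and -0.60. With arrays scaled, the limma dye-term fit called Slc39a7 (adjusted p = 0.0348), Slc30a5 (0.023), Slc30a3 (0.0438), Slc25a10 (0.0392) and Slc25a20 (0.0397). That setting called 18 of the 184 carriers and 1084 of all 11579 features. Slc30a3 had -1.67 and 0.89 on the XY arrays, past 1.5-fold in opposite directions.

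Carriers of nucleosides, sugar phosphates and nucleotide sugars (21 genes) lay above in 4 and below in 4, with a median of 0.01. Slc29a1, the main equilibrative nucleoside transporter, had 0.84 and 0.44. Slc37a4, which takes glucose 6-phosphate into the endoplasmic reticulum, had 0.14 and 0.50, whereas its relative Slc37a2 had -0.34 and -0.65. Slc16a1, the lactate and pyruvate carrier, had -0.33 and -0.28 within a class of 15 genes for peptides, bile acids and monocarboxylates, of which 4 lay above and 3 below. Slc10a7, also in that class, had -0.46 and -0.27. Among 4 carriers of phosphate and urea, Slc20a1, a sodium-phosphate cotransporter, had 0.23 and 0.38. The limma dye-term fit called none of these. With printed blocks centred it called Slc29a1 (adjusted p = 0.0411), and with arrays scaled Slc29a1 (0.0147) and Slc37a2 (0.0399). Of all 11579 features, 650 and 1084 were called in these settings.

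Apart from Slc46a3, no gene of the remaining classes passed the rule of size. Sugar transporter families 2, 5, 45 and 50 had 11 measured genes, 4 above and 3 below. Slc5a3, which takes up the osmolyte myo-inositol, had -0.24 and 1.04 in XY gonads. Slc2a1, the main glucose carrier of embryonic cells and named for that, had no value on XY replicate 1. It had 0.46 on XY replicate 2, and -0.09 and 0.27 on the Wnt4 null arrays. Of 20 vesicular and organic ion carriers 2 lay above and 3 below. Slc22a26, of the organic anion carriers, had 0.51 and 0.25, while Slc17a6, the vesicular glutamate transporter, had -0.01 and -0.95. Both were called by the limma dye-term fit with arrays scaled (adjusted p = 0.0456 and 0.0253), where 1084 of all 11579 features were called. Of 5 sodium-proton and sodium-calcium exchangers 3 lay above and 0 below, with a median of 0.14. The 9 vitamin and choline carriers had 2 above and 2 below, including Slc46a3, and the 4 fatty acid carriers 1 and 1.

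**Figure D3:**
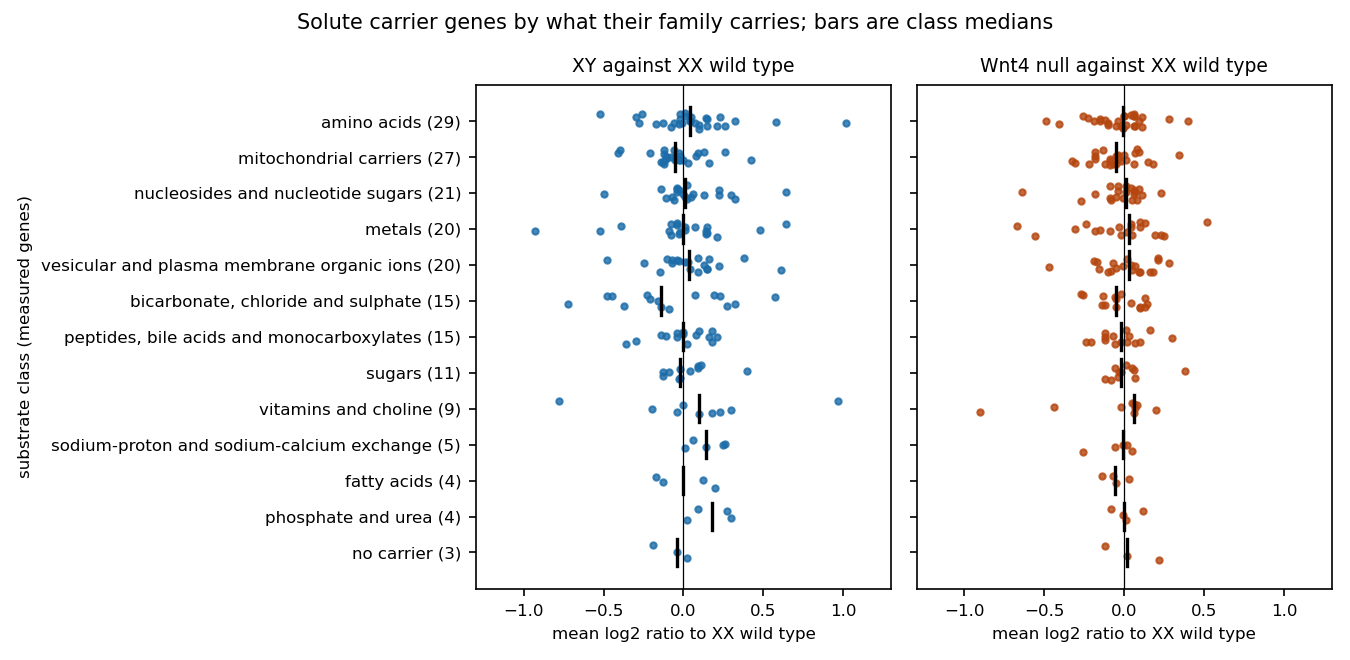
Mean log2 ratio of every measured carrier in XY (left) and Wnt4 null gonads (right) against XX wild type, 1 point per gene, in rows by substrate class (Slc66a1, in no class, is not drawn), with a black bar at the class median. Class medians stay between -0.14 and 0.18 in the XY panel among classes of 4 or more genes, and single genes such as Slc6a8 and Slc41a3 lie far from their class.

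In Wnt4 null gonads, Slc41a3 was the 1 carrier past 1.5-fold on each array with 1 sign. It was lower, where the rule took 0.518% of all features, and 0 carriers were higher, where it took 0.553%. Limma without the dye term called 0 carriers and 0 of all features (0.0%). At an unadjusted p under 0.05 it took 6 carriers (Slc30a5, Slc38a9, Slc40a1, Slc41a3, Slc46a3 and Slc6a6), which is 3.26%, beside 2.86% of all features. With the dye term it called 0 carriers at an adjusted p under 0.05 and 0.207% of all features (0.138% higher and 0.0691% lower), and at an unadjusted p under 0.05 it took 14 carriers, 7.61% beside 11.8%. On both arrays 20 carriers lay above 0 and 35 below, where all features had 15.4% above and 15.9% below. These shares of carriers were 10.9% and 19%, and the other 129 had arrays of different sign, as did 68.6% of all features.

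The dye orientation bears on these values. If replicate 1 of the Wnt4 null pair is turned as well, the Wnt4 null means of Slc41a3, Slc46a3, Slc30a5 and Slc40a1 become -0.02, 0.02, -0.00 and 0.06, since their arrays would then oppose each other. In that reading 67 carriers lie above 0 on both Wnt4 null arrays and 62 below, where all features have 33.8% and 34.9%, and the sides given below for Wnt4 null genes and classes would change likewise. Also in that reading 10 other carriers pass 1.5-fold on both arrays. They are Slc12a1, Slc17a5, Slc25a45, Slc26a6, Slc27a5, Slc29a2, Slc30a3, Slc6a4, Slc7a2 and Slc7a3, whose arrays point in opposite directions as read here, where 5.65% of all features did so. The largest such gap was in Slc30a3, a vesicular zinc transporter, with -1.48 and 1.73 on the Wnt4 null arrays beside -1.67 and 0.89 for XY. Replicate 1 of both comparisons was low and replicate 2 high in this gene. Slc12a1, the kidney sodium-potassium-chloride cotransporter, had -0.86 and 0.81 beside -1.29 and 0.34 in XY gonads, and Slc7a2, a cationic amino acid carrier, -0.76 and 0.74 beside -1.51 and 0.48. Slc38a2, a stress-responsive neutral amino acid carrier, ran the other way, with 0.92 and -0.37 beside 0.73 and -0.54.

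In the XY pair 4 carriers (Slc16a13, Slc27a5, Slc30a3 and Slc31a2) pointed past 1.5-fold in opposite directions, where 1.77% of all features did. In 100 of the 184 carriers (54.35%) the part of the values shared by arrays of the same dye orientation was larger in size than both means, beside 48.53% of all features. Its median size was 0.168, beside 0.165 over all features. Slc48a1, a heme transporter of endosomes and lysosomes, was chosen after its values were seen. Its XY arrays had 2.02 and -0.09 and its Wnt4 null arrays -2.00 and 0.20, so a single array of each pair made its means of 0.97 ± 1.49 and -0.90 ± 1.56 (SD, n = 2 each).

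Among the genes low on both Wnt4 null arrays, Slc38a9, a lysosomal carrier that signals amino acid supply to mTORC1, had -0.41 and -0.57, a mean of -0.49 ± 0.11 (SD, n = 2). It had -0.11 and -0.41 in XY gonads. Slc35d2, a Golgi carrier of nucleotide sugars, had -0.23 and -1.05, so its mean of -0.64 rests largely on replicate 2. Slc22a13 had -0.31 and -0.63, while its XY arrays had 0.77 and -0.44. Slc39a11 (-0.19 and -0.43), Slc25a25 (-0.45 and -0.17), Slc29a3 (-0.08 and -0.47) and Slc12a7 (-0.32 and -0.21) were lower than XX wild type by less. None had an adjusted p under 0.05 in limma.

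Among those high on both Wnt4 null arrays after Slc40a1, the glycine transporter Slc6a9 had 0.03 and 0.76, and Slc5a3 had 0.45 and 0.30. Slc11a2, which imports iron across the gut wall and out of endosomes, had 0.23 and 0.22. Slc35e3, Slc9a3r1, Slc44a1, Slc22a17, Slc25a24 and Slc20a1 had means between 0.12 and 0.23. For Slc44a1, a choline carrier, the probes disagreed, with Wnt4 null means of 0.42 and -0.01. Mitochondrial carriers had 2 genes above and 8 below on both arrays, amino acid carriers 3 and 6, metal carriers 3 and 5, and nucleoside and nucleotide sugar carriers 4 and 3, with medians of -0.05, -0.01, 0.03 and 0.01.

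**Figure D4:**
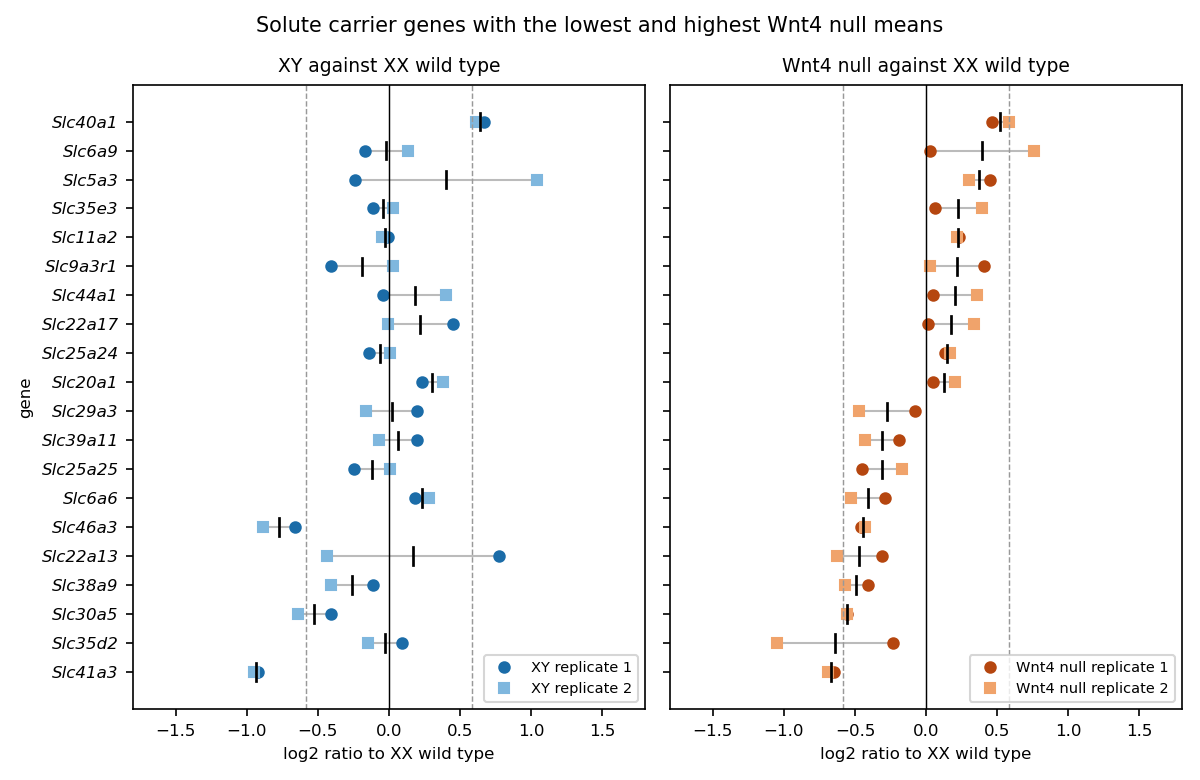
Log2 ratio to XX wild type on each array (circles replicate 1, squares replicate 2, black bars the mean of 2) for the carriers with the highest and lowest Wnt4 null means among those with the same sign on both Wnt4 null arrays, with XY on the left, Wnt4 null on the right and dashed lines at 1.5-fold. Slc41a3, Slc30a5 and Slc46a3 lie left of 0 and Slc40a1 right of 0 in both panels, while Slc6a6 lies on different sides.

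Set side by side, 5 carriers lay above the XX wild type on all 4 arrays and 14 below, where all features had 7.48% and 7.57%. XX wild type is the reference in all 4 values. With signs set by the dye orientation, 11 lay above on all 4 arrays and 5 below, where all features had 5.69% and 6.17%. Another 8 carriers (4.35%, beside 4.89% of all features) lay on different sides of 0 in the 2 comparisons on all 4 arrays. Slc6a6, the taurine transporter, had 0.18 and 0.28 in XY gonads and -0.29 and -0.53 in Wnt4 null gonads. Its groups did not overlap. The difference of 0.64 had a limma adjusted p of 1.0, or 0.445 with the dye term. With limma, 0 carriers and 0.0% of all features differed between XY and Wnt4 null gonads at an adjusted p under 0.05, with or without the dye term. Before adjustment, p was under 0.05 for 2 carriers (Slc6a6 and Slc6a8) and 1.63% of all features when dye was left out, and for 18 carriers and 8.96% of all features when it was in the fit.

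Of the 62 carriers without values on all arrays, 4 had both XY values and 0 of them passed 1.5-fold on both arrays. Both Wnt4 null values were present for 27, of which 0 passed 1.5-fold with 1 sign and 7 with opposite signs. Slc4a1, the anion exchanger of red blood cells, had -1.27 and 1.25. Slc7a1, the cationic amino acid carrier, had -1.20 and 1.40. Slc19a1, the reduced folate carrier, had -1.13 and 0.95, and Slc2a3, a glucose carrier, -0.73 and 0.81. The other 3 were Slc10a1 (-0.92 and 0.91), Slc17a1 (-1.33 and 1.29) and Slc3a1 (-0.81 and 0.59). All 7 were low on replicate 1 and high on replicate 2.

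Proteins that work beside the carriers gave a few values of the same size. Of 13 measured genes for sodium and proton pumps, 6 lay above 0 on both XY arrays and 2 below. Fxyd6, a regulator of the sodium-potassium pump, had 0.94 and 0.97, with a limma adjusted p of 0.296 without and 0.0355 with the dye term. Of 4 organic anion transporters named Slco, Slco3a1 had 0.59 and 0.79 (adjusted p = 0.407 and 0.0438). Of 14 ABC transporters, 7 aquaporins, 11 carbonic anhydrases and 12 genes of glucose use, limma called 0 in XY gonads with the dye term. Genes of glucose use lay above 0 on both XY arrays in 6 cases and below in 1, with a median of 0.17. On the Wnt4 null arrays 0 lay above and 6 below, with a median of -0.27, although Ldha, the lactate dehydrogenase subunit and the lowest, had -0.13 and -1.09. The water channel Aqp5 had 0.68 and 1.06 on the Wnt4 null arrays (adjusted p = 1.0, or 0.0892 with the dye term).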

How the data were processed

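The authors deposited 1 log2 ratio of the dyes per spot and array. Base 2 was read from XY replicate 1, whose lowest value, at 6 spots, is -6.64, the log2 of 0.01, and was assumed for the other arrays. Centring is near 0 (deposited medians -0.0019, -0.0172, 0.00840 and -0.0388 for XY replicates 1 and 2 and Wnt4 null replicates 1 and 2), its method and the normalization are not given in the sources used here, and direction is likely only, as the report says. Values were present at 12866 to 14533 of 17664 spots. The number of arrays limits the precision.

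Gene names came from the platform annotation. Of the spots, 14010 had 1 symbol, 13 several and 3641 none. Of the symbols, 13908 matched RefSeq (GRCm38.p6) by Entrez identifier, with 0 symbols altered. Spot numbers of the value table and the annotation were joined with rows and columns exchanged inside each of 32 printed blocks of 552 spots. In that order, control oligos held 0.467 of the variance between their spots and pairs of probes of 1 gene had rank correlations of 0.303 (XY) and 0.138 (Wnt4 null) over 519 pairs. In the deposited order these were 0.0928, -0.0016 and 0.0051 (485 pairs). The join is inferred, and every gene value rests on it.

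Arrays were centred on their medians, probes averaged per gene, and 11579 features with values on all 4 arrays fitted by lmFit and eBayes of limma 3.58.1 (R 4.3.3), 2-sided, with Benjamini-Hochberg adjustment over all features, with 1 coefficient per comparison. The main fit had no dye term, since a dye effect cancels in the mean of a pair. An alternative gave each probe a dye term shared by the 4 arrays. That term takes up the difference within a pair that both comparisons share, so it assumes an equal dye effect in both. A single residual degree of freedom per feature is then left, before limma shares spread over features. The fold limit was 1.5. Genes named had passed that limit, been called, had one of the 10 highest or lowest means with the same sign on both arrays, had 2 probes, or were highest or lowest in a family of 5 or more genes. Exceptions are marked. The carriers, lists and classes were chosen with earlier results of these data known. Substrate classes follow family numbers. A class can thus hold carriers of other solutes, such as the heme transporter Slc48a1 among the vitamin and choline carriers.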

Additional observations from a re-analysis of the deposited data

Results flagged for a closer look

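Of the named carriers, 3 had both XY arrays on one side of 0 and both Wnt4 null arrays on the other. Among all measured carriers 8 did so, which is 4.35%, beside 4.89% of all features, so the share is near the background. The XY mean minus the Wnt4 null mean was 0.64 for Slc6a6, the taurine transporter. It was 0.43 for Slc43a3 (XY 0.22 and 0.41, Wnt4 null -0.11 and -0.12) and -0.26 for Slc11a2 (XY -0.01 and -0.05, Wnt4 null 0.23 and 0.22). The adjusted p of the difference in limma was 1.0 for each without the dye term, and 0.445, 0.487 and 0.652 with it. These 3 were picked because their arrays lay on opposite sides, so the sides themselves are no test. Carriers outside the named set did so too. Slc24a1 and Slc7a7 had differences of 0.51 and 0.45, larger than that of Slc43a3. Slc16a7, Slc17a2 and Slc44a4 had 0.26, 0.22 and -0.09.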

How the results depend on the processing

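Alternatives numbered 19, of which 14 were planned and 5, which join the dye term to another choice, were chosen after seeing the data. For XY gonads limma called 0 carriers without the dye term under every setting run, and with it 4, or 5 with the deposited centring, 8 with each printed block centred and 18 with arrays brought to a common spread (433, 650 and 1084 of all features, beside 323). For Wnt4 null gonads it called 0, or 1 (Slc41a3) with the dye term and blocks centred or arrays scaled. There limma called 168 and 150 of all 11579 features, beside 24 with the dye term alone. With the dye term and other directions it called 0. The difference between XY and Wnt4 null gave 0 carriers throughout. With the dye term, it gave 27 of all 11579 features with blocks centred and 75 with arrays scaled.

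Past 1.5-fold on both arrays, the XY count was 4 wherever it could be had, but with all columns as deposited those were other genes, with 0 shared, and with blocks centred 3 were shared. The Wnt4 null count of 1 became 0 with blocks centred and 10 with ratios read as Cy3 over Cy5 (8 higher, 2 lower) or Cy5 over Cy3 (2 higher, 8 lower). These counts cannot be had for a comparison that has lost an array.

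The XY median of 0.00568 became -0.00198 with the deposited centring, -0.00264 as deposited and -0.00568 as Cy5 over Cy3, and 0.012 to 0.0223 without 1 XY array. The Wnt4 null median of -0.0148 became -0.0299 with the deposited centring, -0.0177 with blocks centred, -0.0101 with arrays scaled, -0.0138 over 214 genes with a value on at least 1 array of each comparison, -0.00372 as Cy3 over Cy5, 0.00372 as Cy5 over Cy3, 0.0148 with its pair turned, and -0.0303 to -0.031 without 1 of its arrays.

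Turned in sign were Slc40a1 in XY gonads as deposited (-0.03, with or without the dye term) and as Cy5 over Cy3 (-0.64), where Slc41a3 (0.93), Slc46a3 (0.78) and Slc6a8 (-1.02) turned too. The Wnt4 null value of Slc41a3 was 0.02 as Cy5 over Cy3 and 0.67 with its pair turned. These follow from the reading of the dyes. Without XY replicate 1 the XY value of Slc4a8 was -0.06, and without XY replicate 2 it was -1.38. The cause of the other moves was not tested. Arrays of the same dye orientation pair across the comparisons, and the dye term is the fit with that block (4 XY carriers against 0). Beyond it, no paired analysis was possible because the labels give no replicate numbers.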
